A study of Canis lupus familiaris with 186 samples.

Results

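The 7 genes CD163, MSR1, MRC1, CD5L, MARCO, STAB1 and CD36, which encode scavenger receptors and related uptake molecules of macrophages, were followed across primary osteosarcomas of 186 pet dogs. They were chosen by gene name, as 7 of the 37952 genes in the deposited count table, and each name matched 1 row. mRNA sequencing had been run once per dog on an untreated limb tumor biopsy. The biopsies came from the 2 clinical trials COTC021 (93 dogs) and COTC022 (93 dogs), which per the study's methods enrolled dogs of varied breed, age and sex with no visible metastasis, all later amputated and given carboplatin with or without rapamycin. No treatment had been given when the tissue was taken, so the trial is a label of enrolment here, and the study's own code treated it as the batch of the libraries. Trial and batch therefore cannot be told apart, and the material is bulk tumor with whatever bone, vessels, fat and blood cells each biopsy held. No dog was sampled more than once, and the comparisons below are across dogs. Outcome and the study's clusters of dogs were not analysed here.

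Scavenger receptors are surface proteins with which macrophages bind and take up modified lipoproteins, haemoglobin complexes, glycoproteins, microbes and dying cells. CD163 takes up haemoglobin bound to haptoglobin, MRC1 (the mannose receptor CD206) is a lectin for mannose-bearing glycoproteins, and MSR1 (CD204) and MARCO are class A receptors for modified lipoproteins and bacteria. STAB1 is a class H receptor found on macrophages and on sinusoidal endothelium, CD36 is a class B receptor for oxidised lipoproteins and long-chain fatty acids that platelets, adipocytes and small vessels also carry, and CD5L is a secreted protein with scavenger receptor cysteine-rich domains that resident macrophages release. In bone tumors these genes are widely read as markers of tumor-associated macrophages, and osteoclasts, the bone-resorbing cells, come from the same myeloid lineage.

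Depth and sample identity were examined first. Totals of estimated counts ran from 6587637 to 27420866 per library, with a median of 10797172. The deposited column names were split into 2 kinds, 50 with a doubled low line, __ (18 from COTC021 and 32 from COTC022) and 136 without. The median total was 19440471 in the former and 9851691 in the latter. Names without the doubled low line are mixed in form (ending in Tumor or tumor) and in depth, since dog 0202 of COTC022 among them had a total of 20011760. They were not split further. What the names stand for is not given in the sources used here. Of 8 listed osteoblast and bone matrix genes, COL1A1, the main bone collagen, had a lowest level of 328 CPM (counts scaled to the library total) and a median of 20451 CPM, and SP7 and IBSP were each at 0 in 1 library. All 16 listed macrophage genes passed the filter on low counts. The tumor of dog 1709 in COTC022 stood apart, with the lowest bone matrix score (-2.95, the mean z-score of the list) and the highest T cell score (3.91) of all 186, so the slopes and pair correlations are also given without it and the other 2 tumors that held the highest level of a receptor.

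Each receptor gene varied widely between tumors. CD163, on chromosome 27 (8402538 to 8433169, GSD_1.0 assembly), had 2.76 CPM in the lowest tumor, a median of 58.1 CPM and 1827 CPM in the highest. MRC1, on chromosome 2 (18038475 to 18133728), had a lowest level of 2.11 CPM, a median of 36.7 CPM and a highest of 354 CPM. Both genes were detected in all 186 tumors. Between the quartiles, CD163 spanned 4.21-fold and MRC1 4.27-fold, and the standard deviation (SD) of log2 CPM was 1.66 for CD163 and 1.49 for MRC1. In bulk tissue, fewer cells of a type and less RNA per cell cannot be told apart.

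The class A receptors differed from each other in how often they were detected. MSR1, on chromosome 16 (40253347 to 40331889), had 0.812 CPM in the lowest tumor, a median of 36.8 CPM and 919 CPM in the highest, and no tumor was at 0. MARCO, on chromosome 19 (32420649 to 32465527), was at 0 in 13 tumors and under 10 counts in 53, with a median of 2.57 CPM and a highest level of 269 CPM. A count of 0 allowed up to 0.139 to 0.392 CPM in those 13 libraries, taking 3 counts as the limit (counting error only). The 5 highest tumors held 38.3% of the summed MARCO CPM of all dogs, against 21.4% for MSR1.

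CD5L was the most uneven of the 7. It lies on chromosome 7 (40467651 to 40477985) and was at 0 in 16 tumors and under 10 counts in 57, with a median of 2.38 CPM and a highest level of 1173 CPM in dog 1709. The zeros allowed up to 0.139 to 0.447 CPM. Its 5 highest tumors held 53.3% of the summed CPM, and the quartiles lay 21.3-fold apart. The SD of log2 CPM was 2.88, larger than that of 99.6% of the 13422 genes that passed the filter, and that of MARCO, 2.48, was larger than that of 99% (MARCO and CD5L carry counting error at these depths).

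STAB1 and CD36 were more even. STAB1, on chromosome 20 (37650617 to 37677514), had 9.44 CPM in the lowest tumor, a median of 85.1 CPM and a highest of 702 CPM. CD36, on chromosome 18 (20626442 to 20655919), had 5.23 CPM in the lowest, a median of 59.4 CPM and 1034 CPM in the highest. Their SDs of log2 CPM were 1.00 and 1.21, larger than those of 77% and 84.7% of the genes tested. Levels are not compared between genes here, because CPM does not account for transcript length.

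**Figure D1:**
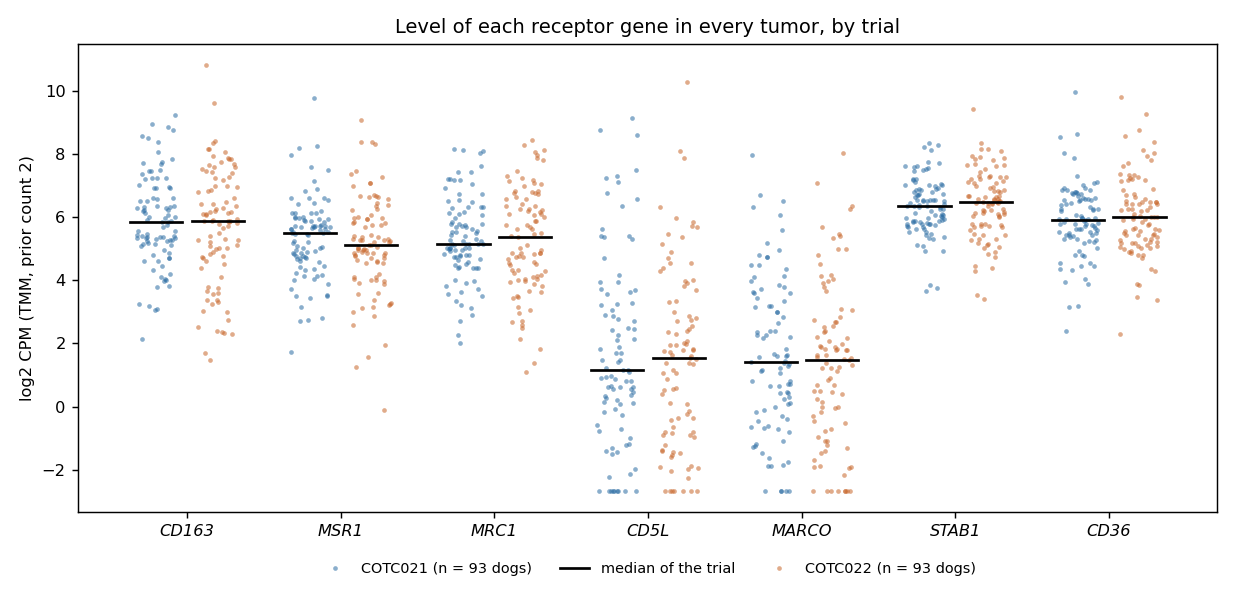
Level of the 7 genes in every tumor (vertical axis, log2 CPM with trimmed-mean normalisation and a prior count of 2), split by trial (93 dogs each, 1 point per dog), with the median of each trial as a black line. The trials overlap for every gene, and the points of CD5L and MARCO run from a floor of -2.66, where the counts were 0, up to 10.27 and 8.04.

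High levels of several receptors tended to fall in the same dogs. Dog 0614 of COTC022 had the highest level of CD163, MRC1, MARCO and STAB1 and was second for MSR1, and dog 0603 of COTC021 had the highest level of MSR1 and CD36. At the other end, dog 1011 of COTC022 had the lowest CD163, MSR1 and MRC1. All 7 genes lay above their own median in 25 dogs (10 from COTC021 and 15 from COTC022), and none did in 27 (9 and 18). Among the 19 highest dogs for each gene, CD163 shared 13 with MSR1, 13 with MRC1 and 13 with STAB1 (68.4% of either list). CD5L and CD36 shared 0 of 19. No dog was among the 19 for all 7 genes, 3 were for 6 of them, and 133 were for none. These counts describe the ranks, with no test.

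Whether the receptors differed between the 2 trials was tested by limma-voom over 13422 genes with Benjamini-Hochberg adjustment. Median levels in COTC021 and COTC022 were 57.5 and 58.2 CPM for CD163, 44.3 and 34.1 CPM for MSR1, and 84.1 and 89.7 CPM for STAB1. The ranges overlapped almost wholly. None of the 7 genes passed an adjusted p of 0.05, against 2 genes (0.0149%) of all tested, and 1332 genes had an unadjusted p under 0.05. The estimates for COTC022 minus COTC021 ran from a log2 difference of -0.51 (standard error (SE) 0.41, adjusted p = 0.734) for MARCO to 0.14 (SE 0.18, adjusted p = 0.845) for CD36. By edgeR and DESeq2, which called 129 and 206 genes of all, none of the 7 passed either, and CD163 and MRC1 took the opposite sign. Between the 2 kinds of column name, with trial in the fit, none of the 7 passed, against 573 genes (4.27%) of all tested, and the log2 differences (doubled low line minus other) ran from -0.31 for MARCO (SE 0.45, adjusted p = 0.779) to 0.17 for CD36 (SE 0.20, adjusted p = 0.716).

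GS-1, by which the study grouped its tumors, is a published signature, mostly of immune genes, that was derived outside these tumors. Here the GS-1 score of a tumor was the mean z-score of the signature's 27 genes left after the filter, none of them among the 7 receptors, and it was used as a continuous measure. All 7 receptor genes were higher in tumors with a higher score (limma-voom with trial in the fit, adjusted p under 0.05), against 3048 genes (22.7%) of all tested. With a slope of at least 0.5 in log2 per SD of the score in addition, 6 of 7 passed, against 710 genes (5.29%). The median slope of the 7 was 1.06, and the median of all genes was -0.02.

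The slope on the GS-1 score was steepest for CD5L, at 2.34 log2 per SD (SE 0.17, adjusted p = 4.77e-29), which ranked 10 among all 13422 genes. The haemoglobin receptor CD163 had 1.38 (SE 0.07, adjusted p = 2.39e-47). MSR1 had 1.13 (SE 0.06), MARCO 1.06 (SE 0.17) and MRC1 1.04 (SE 0.08), and these 3 slopes differed from each other by less than the SE of MARCO. STAB1 had 0.69 (SE 0.05, adjusted p = 2.95e-25). CD36 had 0.45 (SE 0.08, adjusted p = 1.23e-06). By edgeR and DESeq2, which model the counts directly, the slope was 0.75 by either tool for CD36 and 1.68 and 1.70 for MARCO, above the limma-voom values by more than 1.5 times. The order of the slopes turned with these tools, since MARCO then lay above CD163 (1.48 by either) and CD36 above STAB1 (0.71 by either). CD5L kept the steepest slope, 2.25 by edgeR and 2.24 by DESeq2.

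Within COTC022 all 7 genes passed (17.6% of all genes were higher), and within COTC021 all passed but CD36 (14.5% of all genes were higher). CD36 had a slope of 0.19 (SE 0.12, adjusted p = 0.241) in COTC021 and 0.70 (SE 0.11, adjusted p = 7.54e-08) in COTC022. The difference between the trials, 0.50 (SE 0.16), had an unadjusted p of 0.00233 in the interaction test and an adjusted p of 1. MRC1 differed by 0.44 (SE 0.16, unadjusted p = 0.00713), CD163 by 0.32 (SE 0.13, unadjusted p = 0.0197) and STAB1 by 0.27 (SE 0.11, unadjusted p = 0.0117), each with an adjusted p of 1. These 4 of 7 receptors had an unadjusted p under 0.05, as did 395 (2.94%) of all genes. The interaction passed for 0 of 13422 genes (0%) by limma-voom with adjustment, so no difference between the trials was called for any of the 7. Without dogs 0614, 0603 and 1709, the slopes of the 7 ran from 0.43 for CD36 to 2.44 for CD5L. All 7 passed, as did 2831 of all 13422 genes in that direction.

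**Figure D2:**
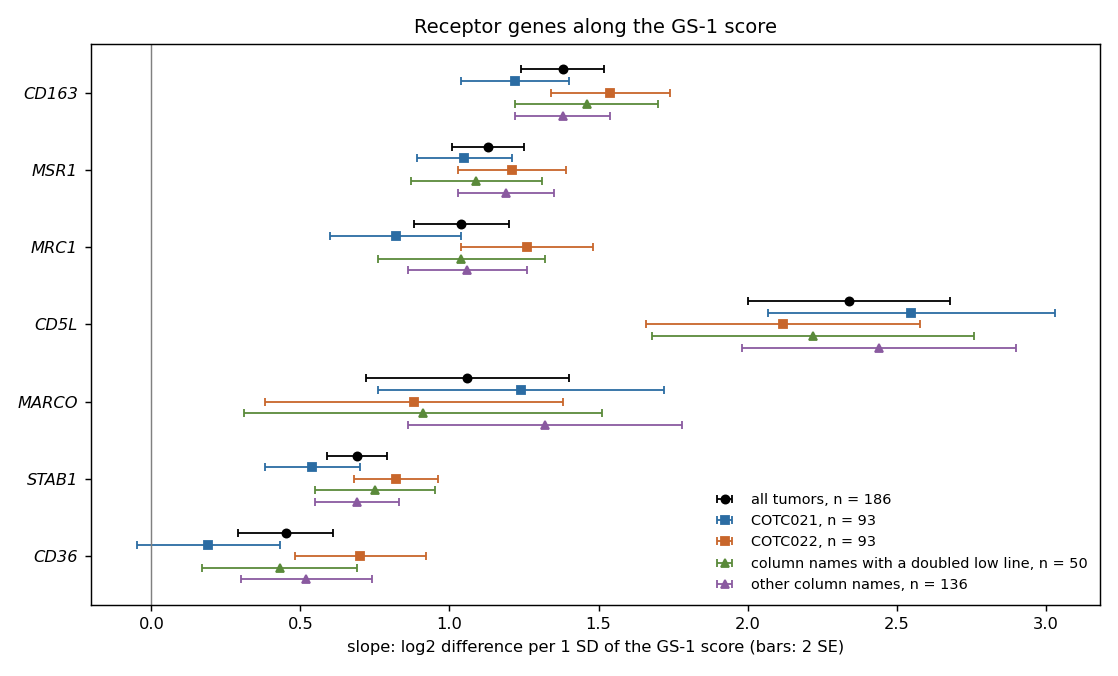
Slope of each gene on the GS-1 score (horizontal axis, log2 difference per 1 SD of the score, with bars of 2 SE) in all 186 tumors, in each trial and in each kind of deposited column name. Every slope lies above 0, and the bars reach 0 only for CD36 in COTC021 (0.19, against 0.70 in COTC022).

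Other macrophage genes moved with the 7 receptors. A macrophage score, the mean z-score of 16 listed genes such as CSF1R, AIF1 and the C1q subunits, correlated with the GS-1 score at r = 0.90 over 186 tumors (Spearman's rho 0.90, permutation p = 1e-05 for each, the smallest that 100000 resamples can give; r = 0.90 without the 2 tumors farthest from the median), and C1QB is in both lists. All 7 receptors were higher with a higher macrophage score, against 2987 genes (22.3%) of all tested, and all 7 had slopes of at least 0.5, against 713 genes (5.31%). The slope was 2.18 log2 per SD (SE 0.22) for CD5L, 1.60 (SE 0.19) for MARCO, 1.40 (SE 0.07) for CD163, 1.17 (SE 0.07) for MSR1 and 0.98 (SE 0.09) for MRC1. STAB1 had 0.69 (SE 0.05) and CD36 0.62 (SE 0.08). The adjusted p-values were at most 4.89e-12. With C1QB and CD68, which other lists hold, left out of the score, CD163 had 1.42 and CD36 0.63. The correlation with the score was closest for CD163 (r = 0.84) and MSR1 (r = 0.78), and CD36 had r = 0.51. Over the 7, Spearman's rho ran from 0.49 to 0.83, with permutation p = 1e-05 for each rho and for each r over all tumors. Without the 2 farthest tumors, r ran from 0.47 to 0.82 and was not tested.

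**Figure D3:**
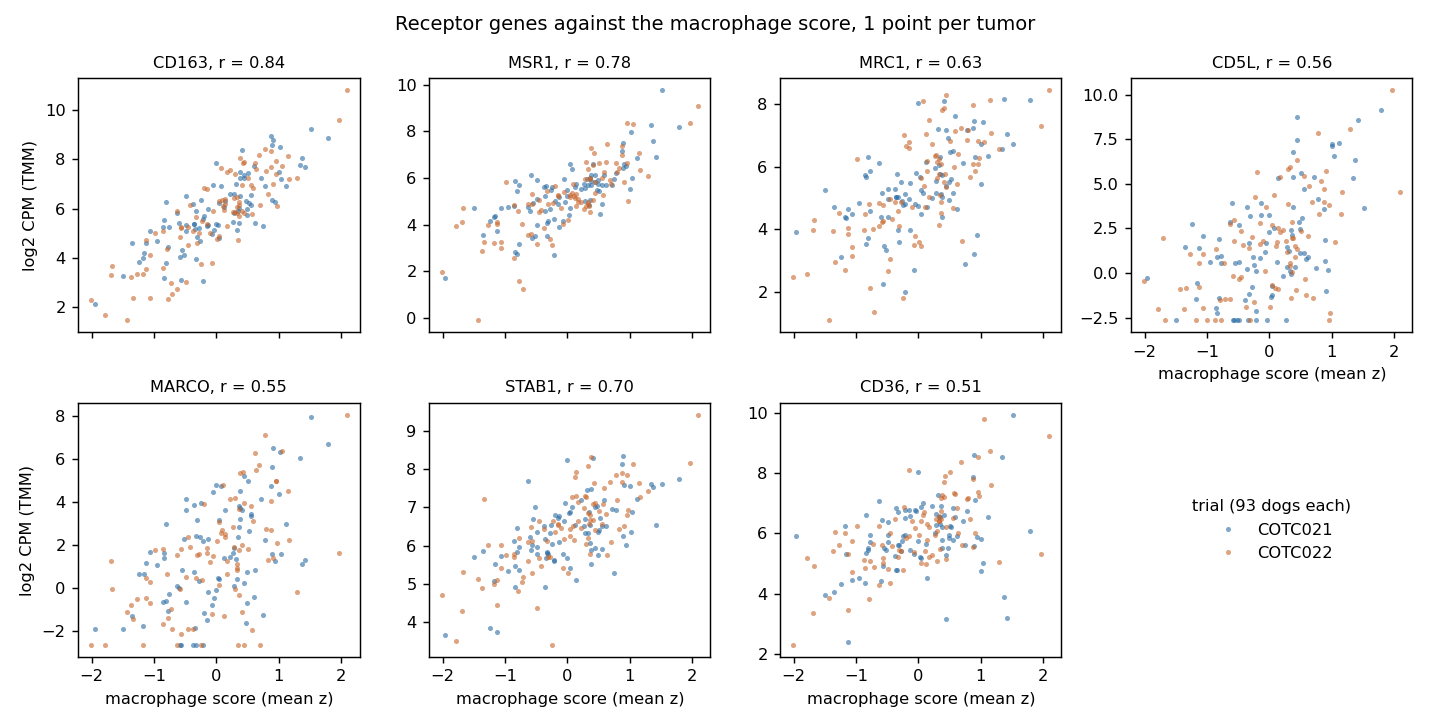
Each receptor (vertical axis, log2 CPM) against the macrophage score (horizontal axis, mean z-score of 16 genes), 1 point per tumor, coloured by trial. CD163 (r = 0.84) and MSR1 (0.78) follow the score closely, whereas MARCO (0.55) and CD5L (0.56) spread over a wide range at the same score, with a row of tumors at the floor where the counts were 0.

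How far the receptors moved together was described by the 21 pairs over 186 tumors. The median Pearson r of log2 CPM was 0.54 and the range was 0.05 to 0.87. By a two-sided permutation test, 20 of 21 pairs had p under 0.05, and the same 20 passed by limma with adjustment over all genes. A correlation in either direction was common among all 13421 genes by that adjusted test, at 41.6% of genes for CD163, 37.6% for MSR1, 42.4% for MRC1, 23.3% for CD5L, 25.2% for MARCO, 47% for STAB1 and 22.8% for CD36. The closest pair was CD163 and MSR1, with r = 0.87 (rho 0.85, permutation p = 1e-05 for both, 2.57e-55 by limma adjusted over all genes). CD163 and MRC1 had r = 0.80 (rho 0.77) and MRC1 and STAB1 r = 0.73 (rho 0.76). CD5L and CD36 were the pair that did not pass, with r = 0.05 (permutation p = 0.476) and rho 0.11 (permutation p = 0.139). Leaving out the 2 tumors farthest from the median of the first gene moved r by at most 0.05 in any pair, and leaving out dogs 0614, 0603 and 1709 likewise by at most 0.05.

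A correlation of at least 0.5 was less frequent over all genes. CD163 reached it with 6 of the 6 others and with 482 (3.59%) of 13421 genes. For MSR1 it was 5 of 6 (2.99% of genes), for STAB1 5 of 6 (3.22%), for MRC1 4 of 6 (2.29%) and for MARCO 4 of 6 (0.887%). CD36 reached it with 3 of 6 (0.328%), namely CD163, MSR1 and STAB1, and CD5L with 1 of 6 (2.03%), CD163. MARCO and CD36 had few close companions of any kind, and their companions included other receptors. CD163 was the gene closest to MARCO of all 13421, and STAB1 ranked 3 for CD36.

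Within each trial and each kind of column name, 20 of 21 pairs had a permutation p under 0.05, and CD5L with CD36 was the exception each time, with r = -0.07 in COTC021 and 0.18 in COTC022. The median r was 0.51 in COTC021 and 0.65 in COTC022, a difference that was not tested. When the macrophage score was removed from both genes by regression, the median r fell to 0.26 and the range was -0.33 to 0.64. CD163 kept r = 0.64 with MRC1, 0.63 with MSR1 and 0.60 with MARCO, with permutation p = 1e-05 for each. MRC1 and STAB1 had 0.52. In contrast, CD5L and CD36 then had r = -0.33 (permutation p = 2e-05), CD5L and STAB1 -0.05 (p = 0.531, permutation test), and MSR1 and CD5L 0.12 (p = 0.117, permutation test).

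**Figure D4:**
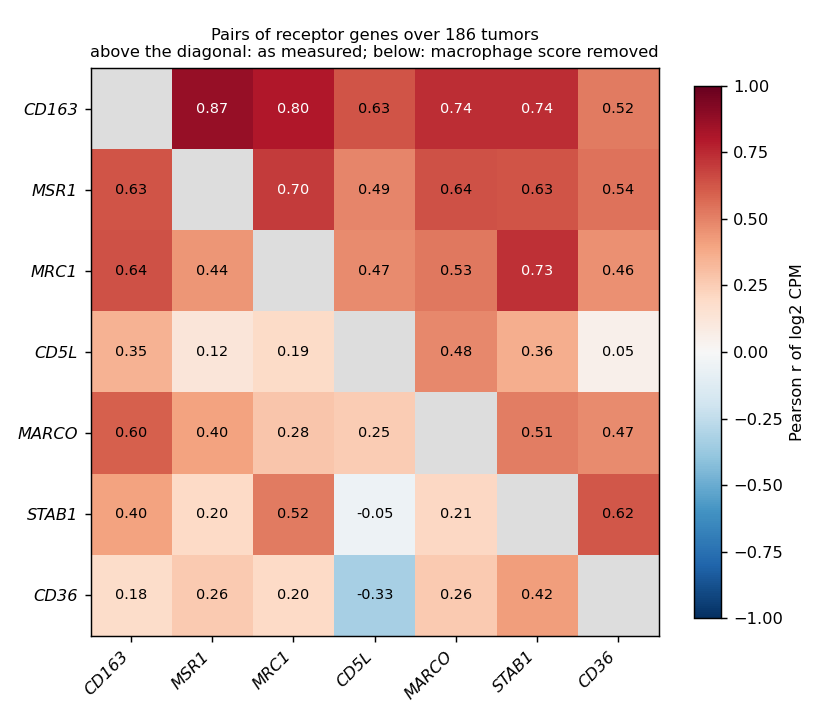
Pearson r of log2 CPM for the 21 pairs over 186 tumors, as measured (above the diagonal) and with the macrophage score removed from both genes (below it). CD163 with MSR1 is the closest pair as measured (0.87), and CD5L with CD36 is the lowest on both sides of the diagonal (0.05 and -0.33).

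The receptors differed in which other cell type lists they followed among 15 list scores, a comparison of 105 relations in all. STAB1, a gene of sinusoidal endothelium as well as macrophages, had r = 0.60 with the score of 10 endothelial genes such as PECAM1, VWF and CDH5, and the other 6 receptors had 0.08 to 0.27. The relation of STAB1 held with the macrophage score removed (r = 0.61, permutation p = 1e-05) and within COTC021 (0.57) and COTC022 (0.63). The part of vessel content in the level of STAB1 was not tested beyond these values.

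CD5L followed the T cell score at r = 0.72 (permutation p = 1e-05). That score rests on the 5 of 8 listed genes that passed the filter, including CD3E and CD2. CD4 is among the 5, and the paper mentions it on canine neutrophils too. Dog 1709 of COTC022 was the highest for both CD5L and the T cell score. With the macrophage score removed, CD5L had r = 0.55 with the T cell score (permutation p = 1e-05). Within the trials, as measured, it had 0.80 in COTC021, which does not hold dog 1709, and 0.62 in COTC022. CD163 had r = 0.64 with the same score as measured, and 0.14 (p = 0.0525, permutation test) with the macrophage score removed. CD36 had r = 0.11 with the T cell score (p = 0.117, permutation test; rho 0.19, p = 0.00964), which was -0.09 in COTC021 and 0.33 in COTC022, and -0.40 (permutation p = 1e-05) with the macrophage score removed. The macrophage and T cell scores themselves had r = 0.70 (rho 0.68, permutation p = 1e-05 for each).

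CD36, which adipocytes carry in quantity, had r = 0.52 with the adipocyte score, and 0.47 with the macrophage score removed (permutation p = 1e-05 for each). STAB1 had 0.48 and 0.42, and MRC1 0.43 and 0.35. That score rests on the 3 of 7 listed genes that passed the filter, LPL, PLIN4 and FABP4. These differed, since FABP4 had a slope of 1.45 on the macrophage score (SE 0.24, adjusted p = 5.42e-08 by limma-voom). LPL (0.06, SE 0.08) and PLIN4 (0.18, SE 0.19) did not pass. ADIPOQ, which defines adipocytes, had a median of 0.122 CPM and was at 0 in 69 tumors. Of the 8 platelet and erythroid genes listed, ITGA2B alone passed, and CD36 had r = 0.01 with it (p = 0.852, permutation test). The part of fat in the level of CD36 was not tested.

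The haem and iron handling score, of 8 genes such as HMOX1 and SLC11A1, had a positive r with all 7 receptors. An r of at least 0.5 with this score was reached by 2.99% of all 13422 genes. Ranked by r among all genes, CD163 was 11 and CD5L, the lowest of the 7, was 434. CD163 had r = 0.79, MSR1 0.77, MARCO 0.69 and STAB1 0.63, and the others ran from 0.48 (CD5L) to 0.56 (MRC1). With the macrophage score removed, CD163 had 0.46 and MARCO 0.50 (permutation p = 1e-05 for each). Against the bone matrix score, 6 of 7 receptors had a negative r, from -0.43 for MRC1 to -0.24 for STAB1. Ranked from the highest r of 13422 genes, these were 13228 and 11838. CD36 had 0.03 (p = 0.662, permutation test). The 8 bone matrix genes did not move as one. On the GS-1 score 6 were lower, against 26.8% of all genes tested. BGLAP did not pass, and SPP1 was higher (0.42, SE 0.11, adjusted p = 0.00109 by limma-voom), against 22.7% of all genes. None of the 7 followed sequencing depth, with r of -0.12 to 0.12 with the log2 library total and permutation p of at least 0.0984.

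**Figure D5:**
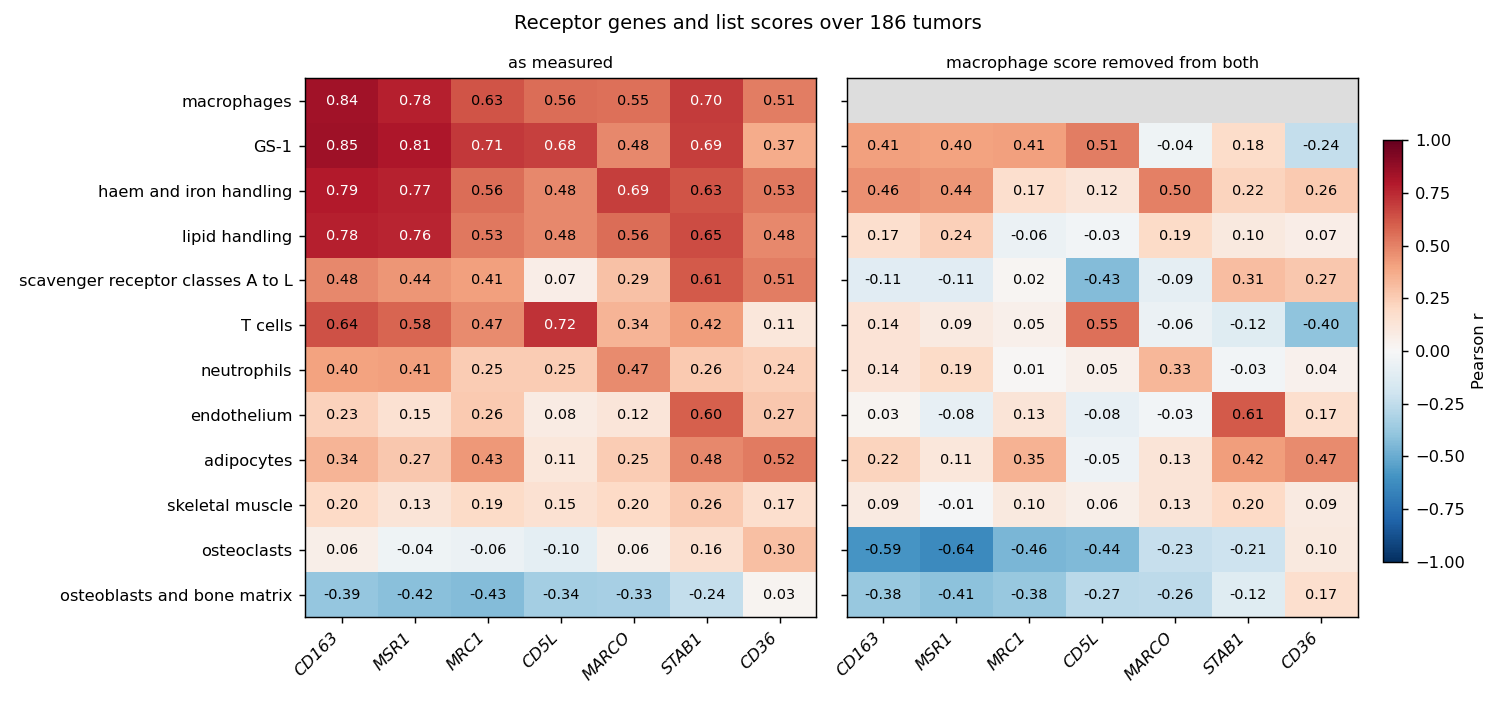
Pearson r of each receptor (columns) with the mean z-score of 12 gene lists (rows) over 186 tumors, as measured (left) and with the macrophage score removed from both (right, with the macrophage row greyed out). STAB1 keeps its relation to endothelium (0.60 and 0.61), CD5L to T cells (0.72 and 0.55) and CD36 to the adipocyte score (0.52 and 0.47), whereas CD36 turns to -0.40 with T cells.

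The receptors differed in how they followed what was left of the GS-1 score once the macrophage score was removed. The 2 scores had r = 0.90 over 186 tumors and share C1QB, so what was left is a small part of GS-1. CD5L then had r = 0.51 with GS-1, and CD163, MRC1 and MSR1 had 0.41, 0.41 and 0.40 (permutation p = 1e-05 for each). STAB1 had 0.18 (p = 0.0141, permutation test). MARCO had -0.04 (p = 0.572, permutation test), and CD36 had -0.24 (p = 0.00085, permutation test). In 1 alternative, the 12 GS-1 genes known from myeloid cells were left out of the score. The slopes of the 7 then ran from 0.39 for CD36 to 2.28 for CD5L. All 7 passed, as did 3051 of all 13422 genes in that direction. The genes left in also rose with the macrophage score, as all 27 GS-1 genes did (adjusted p under 0.05 by limma-voom), against 22.3% of all genes tested.

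The genes most like each receptor over the 186 tumors overlapped in part between receptors. For CD163 they were VSIG4, a complement receptor of resident macrophages (r = 0.91), MPEG1, BPI and TLR8, and for MSR1 VSIG4 (r = 0.93), BPI, CD86, CTSS and TBXAS1. MRC1 was closest to GAS7 (r = 0.82), followed by VSIG4, BPI, FCGR2B and TLR8. VSIG4 is itself a GS-1 gene. CD5L was closest to CFP, the complement factor properdin (r = 0.81) and a GS-1 gene, and then to SECTM1, GIMAP4, IL2RG and CD3E, the last 2 being lymphocyte genes. MARCO was closest to AQP9 (r = 0.73), ITGAM, HMOX1, the haem-degrading enzyme, SLC11A1, a phagosomal metal transporter, and CPM. For STAB1 the list was TLR4 (r = 0.79), MFNG, SLC49A3, ADAP2 and SLCO2B1, and for CD36 it was CLEC7A, the beta-glucan receptor dectin-1 (r = 0.65), ITGAM, SLC7A8, SLC48A1, a haem transporter, and TBXAS1. Receptors of the list of 7 and unnamed genes were left out of these lists.

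Other scavenger receptors, listed by class A to L, did not move as one with the GS-1 score. Of 19 listed, 14 passed the filter, 9 of them were higher with the score and 3 were lower, against 22.7% and 26.8% of all genes tested, with a median slope of 0.22. CXCL16, which is both a chemokine and a receptor for oxidised lipoprotein, had 0.72 (SE 0.04, adjusted p = 3.73e-36), and CLEC7A 0.61 (SE 0.07). OLR1, the lectin-like receptor for oxidised lipoprotein, had 0.39 (SE 0.09, adjusted p = 5.69e-05). The lower genes were COLEC12, a class A receptor with a collectin domain, at -0.52 (SE 0.07, adjusted p = 2.7e-10), SCARF2 at -0.30 (SE 0.08) and SCARA3 at -0.17 (SE 0.07, adjusted p = 0.0414). LRP1, a large endocytic receptor, had 0.06 (SE 0.05, adjusted p = 0.384).

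Genes that handle what these receptors take up were mostly higher with the GS-1 score. For haem and iron, 8 of the 10 listed genes passed the filter and all 8 were higher, against 22.7% of all genes tested, with a median slope of 0.50. A slope of at least 0.5 in addition was reached by 4 of 8, against 5.29% of all genes. SLC11A1 had 1.06 (SE 0.06) and HMOX1 0.70 (SE 0.08, adjusted p = 5.84e-14). SLC40A1, the iron exporter ferroportin, had 0.29 (SE 0.07). For lipid handling, 10 of 11 were higher and 6 of 11 also had a slope of at least 0.5, with a median of 0.53. The apolipoproteins APOC1 and APOE had 1.43 (SE 0.09) and 1.00 (SE 0.10), the cholesterol exporters ABCG1 and ABCA1 0.70 (SE 0.05) and 0.53 (SE 0.05), and LIPA, the lysosomal acid lipase, 0.75 (SE 0.06). NPC1, which moves cholesterol out of lysosomes, had 0.11 (SE 0.05, adjusted p = 0.0556) and did not pass. On the macrophage score, the median slopes were 0.56 for haem and iron and 0.54 for lipid handling. SLC11A1 had 1.13 there and APOC1 1.53. The part of macrophage content in the slopes on GS-1 was not tested.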

How the data were processed

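RNA from 186 tumors had been sequenced with a stranded mRNA kit. Per the submitters' notes and the methods, the authors used bcl2fastq, cutadapt, STAR 2.7.0f and RSEM 1.3.1 on CanFam4 (GSD_1.0) and deposited estimated counts per gene, 3.07% of them not whole, which were rounded here. Of 198 deposited columns, 186 matched a sample by name and 12 were not used. The low-count filter (edgeR's filterByExpr with a large.n of 5, a min.prop of 0.5 and a min.count of 10) left 13422 genes, all 7 receptors among them. Tests were limma-voom (limma 3.58.1, edgeR 4.0.16, R 4.3.3) on TMM-normalised counts, Benjamini-Hochberg adjusted over all genes, with edgeR quasi-likelihood and DESeq2 1.42.0 as alternatives. The CPM levels use the library total, and log2 CPM uses TMM and a prior count of 2. Correlations were tested by 100000 permutations of the dogs. The test scripts were checked on simulated data. Genes named were the 7 receptors, the 5 most correlated named genes of each (1 for CD163 is not reported here), and list genes on which a result turns. The 7 genes, the lists and the tests were chosen with earlier results of these data known. The alternatives that leave out 3 dogs, remove the macrophage score from list scores or drop C1QB and CD68 were added after the data were seen.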

Additional observations from a re-analysis of the deposited data

How the results depend on the processing

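The slopes on the GS-1 and macrophage scores stayed positive for all 7 receptors under every alternative run, and each passed under each of them except CD36 within COTC021. On the GS-1 score, the 12 alternatives gave slopes of 1.22 to 1.54 for CD163, 0.88 to 1.70 for MARCO and 0.19 to 0.75 for CD36. The number of genes higher with the GS-1 score was 1943 within COTC021 and 1894 within the libraries with a doubled low line in their column name, and without a filter 1288 genes were higher with a slope of at least 0.5. In those libraries, 1663 genes were higher with the macrophage score. Fewer dogs entered these subsets and more genes the unfiltered fit.

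The trial difference was not called for any of the 7 under any alternative, but the number of genes called was 129 by edgeR, 206 by DESeq2, 0 without a filter, 0 and 8 within the 2 kinds of column name, and 0 without the 3 dogs. Signs turned for CD163 (0.17 by edgeR, 0.16 by DESeq2, 0.29 in the doubled low line libraries), MRC1 (0.16, 0.16 and 0.44), and, in those libraries, MSR1 (0.05), CD5L (1.03) and CD36 (-0.20). The cause was not tested.

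With the macrophage score removed, the median pair r was 0.26, CD5L had -0.05 with STAB1 and -0.33 with CD36, MARCO and CD36 had -0.04 and -0.24 with GS-1, CD36 had -0.40 with T cells and CD163 -0.59 with osteoclasts. CD5L and CD36 had -0.07 within COTC021, CD36 had -0.09 with T cells there, and CD36 had -0.02 (COTC022) and -0.08 (doubled low line libraries) with bone matrix. Values of CD5L and MARCO rest on under 10 counts in 57 and 53 tumors, where depth limits what can be told from 0. No paired analysis was possible because each dog has 1 library and the trials share no dog.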

Other observations

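Osteoclast genes showed a pattern of their own. The osteoclast score, of 7 genes such as ACP5, CTSK and MMP9, had r = 0.42 with the macrophage score over 186 tumors (rho 0.39, permutation p = 1e-05 for each, r = 0.43 without the 2 farthest tumors). As measured, CD163 and MSR1 had r = 0.06 and -0.04 with the osteoclast score (p = 0.386 and p = 0.628, permutation tests), and CD36 had 0.30 (p = 4e-05, permutation test). With the macrophage score removed from both, CD163 had r = -0.59, MSR1 -0.64, MRC1 -0.46 and CD5L -0.44 (permutation p = 1e-05 for each), and CD36 had 0.10 (p = 0.163, permutation test). Osteoclasts also use several genes of the macrophage list, and the part of this overlap in the negative values was not tested.

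With the score of other scavenger receptors by class, CD5L had r = 0.07 as measured and -0.43 with the macrophage score removed, and STAB1 had 0.61 and 0.31. With the neutrophil score, MARCO had 0.47 as measured, MSR1 0.41 and CD163 0.40, and the others ran from 0.24 (CD36) to 0.26 (STAB1). MARCO had 0.33 with the macrophage score removed. The 5 genes of the neutrophil score did not move as one. On the macrophage score, 4 were higher, from 0.68 for S100A8 to 1.21 for CSF3R, against 2987 of all 13422 genes. MPO was lower (-0.27, SE 0.10, adjusted p = 0.0221 by limma-voom), against 3680 of all genes.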
